A study of Mus musculus with 14 samples.

Results

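The 10 genes described here are those that ERK signalling switches on and that in turn restrain it or carry it into the nucleus: the ERK phosphatase genes Dusp4 and Dusp6, the Sprouty genes Spry1, Spry2 and Spry4, the Spred genes Spred1 and Spred2, and the Etv genes Etv1, Etv4 and Etv5. They were chosen by name from the 29713 genes listed in each library, with earlier results of these data known, and all 10 had counts high enough to be tested. RNA was sequenced from mouse neural stem cells of the strain label OG2, a line whose mice carry a green fluorescent protein transgene under Oct4 regulatory sequence. In the drug experiment, cells at passage 8 were either undifferentiated or differentiated for 2, 4 or 8 days, and at each of these 4 stages 1 library was labelled NC, 1 Naloxone and 1 Damgo. The labels do not spell out NC, the doses, the medium or how differentiation was started, and they name no agent for 2 further undifferentiated cultures at passage 8 and passage 13, called references below. Naloxone blocks opioid receptors, and DAMGO is a peptide that activates the mu opioid receptor. Every condition has 1 library, so a stage is described by its 3 libraries, 1 per treatment, and no source says whether they came from separate cultures. The p-values therefore measure the spread left between the 12 libraries once stage and treatment are fitted, which may be technical. In the stage and drug tests, a drug difference that varies by stage adds to this spread, which all stages share.

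Fibroblast growth factors and members of the epidermal growth factor family bind receptor tyrosine kinases, which load Ras with GTP through Grb2 and Sos and so start the kinase chain of Raf, MEK and ERK. Active ERK reaches the nucleus, where it acts through ETS factors and releases the repression that Capicua imposes on its targets, among them Etv1, Etv4, Etv5 and Dusp6. Dusp6 removes the activating phosphates from ERK in the cytoplasm and Dusp4 does so in the nucleus, Sprouty proteins act between the receptor and Raf, and Spred proteins bring neurofibromin to Ras. Neural stem cells are commonly propagated in EGF and FGF2, which keep this pathway active. The mRNA of these genes is widely read as a sign of ERK output, although protein and phosphorylation were not measured here.

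Libraries held 4143030 to 9070533 estimated counts. The stem and progenitor markers, all 8 of which had counts, summed to between 8730 and 9090 CPM (counts scaled to a common library size) in the undifferentiated libraries, 3810 to 3940 at day 4 and 7870 to 8130 at day 8. The day 8 sum was mostly Vim, which went from 3000 ± 22.7 CPM (SD, n = 3) to 6770 ± 95.3, while Nes went from 1800 ± 77.8 to 268 ± 41.3, Tnc from 1640 ± 32.5 to 50.3 ± 8.27 and Fabp7 from 2010 ± 43.2 to 370 ± 147, and 5 of the 8 genes were lower and 3 higher. The 8 cell division genes fell from 3500 to 3670 CPM in undifferentiated cells to between 19.9 and 23.6 at day 8, while the 10 astrocyte genes went from between 1270 and 1330 to between 35000 and 36900. The 6 oligodendrocyte precursor genes summed to between 2650 and 2850 CPM undifferentiated, 4460 and 5310 at day 2, 3990 and 4040 at day 4 and 1930 and 2060 at day 8, and the 6 oligodendrocyte genes went from between 88.5 and 92.6 to between 403 and 438 at day 8. The 8 neuronal genes were at 1370 to 1410 CPM undifferentiated, 811 to 1940 at day 2, 2100 to 2190 at day 4 and 488 to 649 at day 8, and the 6 mesenchyme and pericyte genes went from between 2.22 and 7.36 to between 124 and 150 at day 8. The sums do not describe every gene. At day 8 against undifferentiated cells, 3 neuronal genes were higher and 3 lower, with a median log2 change of -0.11. The oligodendrocyte precursor genes also had 3 higher and 3 lower, and their median was 1.26 although their sum fell. Of all genes tested 41.5% were higher and 38.3% lower. The part of these shifts in the results was not tested. In bulk RNA, fewer cells of a type cannot be told apart from less RNA per cell. The 6 microglial genes summed to at most 2.42 CPM and Cx3cr1 had no count in any library. The 5 endothelial genes summed to at most 24.4 CPM, with Cdh5 and Cldn5 at no count. Across genes, the day 2 naloxone and DAMGO libraries differed from their NC library along GC content (r = 0.559 and 0.509 over 13340 genes, which are not independent replicates), as did the day 8 naloxone library (r = 0.444). In the other libraries of the drug experiment this r lay between -0.0413 and 0.12.

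RefSeq's promoter table (GRCm38.p6) holds 9 starts for 7 of the 10 genes, and its bases before each start were searched for sites of Capicua, the repressor that ERK removes. The Capicua octamers TGAATGAA and TGAATGGA, the ETS core CCGGAA and the cyclic AMP response element TGACGTCA were searched on both strands of the 250 bases before the start, and none of the 9 windows held any of them. Over all 32851 promoters of the table these motifs stood in 1.08%, 1.01%, 12% and 1.55%. A wider set of Capicua octamers was added after the sequences had been seen: TGAATGAA, TGAATGAG, TGAATGGA, TGAATGGG, TCAATGAA, TCAATGAG, TCAATGGA and TCAATGGG, which contains the 2 octamers above. At least 1 of these 8 stood in 5.86% of all promoters and in 3 of the 9 windows. These 3 windows are shown because they hold an octamer of the wider set, and the octamers are in capitals (a match on the other strand appears as its reverse complement). Each window is read 5′ to 3′ on the gene's strand. The Dusp6 window, chr10:99262981-99263230 on the plus strand, holds TCAATGGA on the other strand with its first base at position -24 from the start. The Spry2 window, chr14:105896820-105897069 on the minus strand, holds TCAATGAA on the other strand at position -54. The window before the second RefSeq start of Etv5, chr16:22438369-22438618 on the minus strand, lies within the gene but in no GENCODE exon of it and holds TGAATGGG 3 times, at positions -242, -198 and, on the other strand, -131. Windows with 3 or more of the 8 octamers made up 0.0578% of the table. A match describes these letters only and says nothing of binding.
Dusp6: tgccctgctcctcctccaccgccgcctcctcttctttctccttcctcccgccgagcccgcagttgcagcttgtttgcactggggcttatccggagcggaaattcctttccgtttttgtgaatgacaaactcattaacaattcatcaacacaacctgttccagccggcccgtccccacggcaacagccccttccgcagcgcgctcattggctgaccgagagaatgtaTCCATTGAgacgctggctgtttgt
Spry2: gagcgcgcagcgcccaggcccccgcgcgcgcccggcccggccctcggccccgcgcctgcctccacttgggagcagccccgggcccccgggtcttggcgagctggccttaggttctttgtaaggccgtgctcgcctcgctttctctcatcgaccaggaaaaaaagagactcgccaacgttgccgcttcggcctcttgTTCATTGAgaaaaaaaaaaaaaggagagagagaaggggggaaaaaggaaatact
Etv5, second start: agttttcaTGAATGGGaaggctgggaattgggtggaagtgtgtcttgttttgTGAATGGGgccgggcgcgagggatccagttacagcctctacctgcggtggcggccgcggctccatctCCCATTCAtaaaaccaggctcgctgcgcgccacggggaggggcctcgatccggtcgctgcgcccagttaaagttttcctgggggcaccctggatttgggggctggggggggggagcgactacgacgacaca

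Dusp6 (ENSMUSG00000019960, chr10:99263231-99267489, plus strand) codes for the cytoplasmic ERK phosphatase and was among the most abundant of the 10 genes before differentiation. In undifferentiated cells it stood at 316 CPM with NC, 324 with naloxone and 296 with DAMGO. At day 2 the 3 libraries gave 49.3, 65.4 and 37.8 CPM in the same order, at day 4 they gave 5.46, 4.23 and 6.01, and at day 8 they gave 1.87, 3.31 and 3.8. Each undifferentiated library was above every day 2 library, and each day 2 library above every day 4 and day 8 library. The day 8 values rest on 10, 28 and 22 counts, and the NC value has an exact 95% Poisson interval of 0.899 to 3.45 CPM that covers counting error only. Against undifferentiated cells the log2 change was -2.64 ± 0.18 (SE) at day 2, -5.91 ± 0.23 at day 4 and -6.69 ± 0.24 at day 8, a 103-fold fall (edgeR quasi-likelihood test, adjusted p = 4.69e-07, 6.89e-09 and 2.17e-09). That fall was the 70th steepest of the 13413 genes tested.

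Dusp4 (ENSMUSG00000031530), the nuclear phosphatase, had a different course. It measured 31.7, 31.8 and 35.8 CPM in the undifferentiated NC, naloxone and DAMGO libraries, 6.67, 6.85 and 5.57 at day 2, 2.48, 2.39 and 1.62 at day 4, and 6.75, 6.85 and 5.88 at day 8. All 3 day 8 libraries were above all 3 day 4 libraries, so Dusp4 was lowest at day 4, and its day 8 values overlapped those of day 2. The log2 changes against undifferentiated cells were -2.38 ± 0.14, -3.91 ± 0.18 and -2.35 ± 0.14 at days 2, 4 and 8 (edgeR adjusted p = 2.26e-07, 2.12e-08 and 1.25e-07). From day 4 to day 8 it rose by 1.56 ± 0.2 on the log2 scale, or 2.94-fold (edgeR adjusted p = 8.73e-05). The day 4 libraries held 15, 13 and 7 counts, and the exact Poisson interval of the lowest was 0.65 to 3.33 CPM. It was the only member of the 10 whose level passed the test as higher between day 4 and day 8.

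The Sprouty genes code for inhibitors that act upstream of Raf. Spry4 (ENSMUSG00000024427) fell furthest with Dusp6. It stood at 263, 278 and 271 CPM in the undifferentiated NC, naloxone and DAMGO libraries, 38.0, 36.5 and 26.2 at day 2, 3.81, 4.23 and 4.16 at day 4, and 2.81, 2.24 and 2.94 at day 8. No stage overlapped the next for Spry4, and its day 8 libraries held 15, 19 and 17 counts. Its log2 change was -3.02 ± 0.12 at day 2, -6.07 ± 0.16 at day 4 and -6.69 ± 0.17 at day 8, again a 103-fold fall (edgeR adjusted p = 1.7e-08, 7.28e-10 and 2.47e-10), and it ranked 69th in steepness of all genes tested.

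Spry1 (ENSMUSG00000037211) followed a like course at a lower level. Its values were 119, 129 and 126 CPM undifferentiated, 28.4, 31.6 and 23.4 at day 2, 7.95, 9.01 and 8.55 at day 4, and 5.06, 4.13 and 4.5 at day 8. No stage overlapped another, and the day 8 change was -4.79 ± 0.13 on the log2 scale, or 27.7-fold (edgeR adjusted p = 4.41e-10). Spry2 (ENSMUSG00000022114, chr14:105891947-105896819, minus strand) kept the most mRNA of the 3. It gave 183, 200 and 205 CPM in undifferentiated cells, 156, 179 and 133 at day 2, 57.9, 59.0 and 47.1 at day 4, and 45.4, 43.6 and 40.3 at day 8. The undifferentiated and day 2 ranges of Spry2 lay close together (183 to 205 against 133 to 179), and its main step came between days 2 and 4. The log2 change was -0.35 ± 0.1 at day 2 (edgeR adjusted p = 0.00982), -1.85 ± 0.11 at day 4 and -2.2 ± 0.11 at day 8, or 4.58-fold (edgeR adjusted p = 2.11e-08 at day 8). The small day 2 change no longer passed without the undifferentiated DAMGO library (-0.23, edgeR adjusted p = 0.0547) or the day 2 DAMGO library (-0.27, edgeR adjusted p = 0.0611). With the trend on GC content and length removed the day 2 value was 0.17, above 0, and did not pass either (edgeR adjusted p = 0.679).

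The Spred proteins carry neurofibromin, a Ras GTPase activator, to the membrane. Spred2 (ENSMUSG00000045671) gave tight values: 101, 101 and 104 CPM undifferentiated, 46.1, 50.1 and 47.6 at day 2, 16.6, 16.7 and 15.3 at day 4, and 13.3, 12.4 and 14.2 at day 8. No stage overlapped another, and at day 8 the change was -2.94 ± 0.09 on the log2 scale, or 7.7-fold (edgeR adjusted p = 8.4e-10). Spred1 (ENSMUSG00000027351) started higher, at 286, 303 and 289 CPM. At day 2 it was 254 with NC but 141 with naloxone and 167 with DAMGO, so the day 2 libraries spanned the day 4 values of 147, 152 and 144. At day 8 it was 55.3, 43.5 and 58.1 CPM, below every earlier library. Its changes were -0.68 ± 0.16 at day 2, -0.99 ± 0.16 at day 4 and -2.5 ± 0.17 at day 8, or 5.67-fold (edgeR adjusted p = 0.0035, 0.000383 and 3.35e-07), and its step from day 2 to day 4 did not pass (-0.31 ± 0.16, edgeR adjusted p = 0.137). That step passed without the day 2 naloxone library (-0.47, edgeR adjusted p = 0.0421) and with the trend on GC content and length removed (-1.44, edgeR adjusted p = 0.000396).

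Etv4 and Etv5, with Etv1 the PEA3 group of ETS transcription factors, act as nuclear effectors of FGF signalling. Etv5 (ENSMUSG00000013089, chr16:22381309-22439719, minus strand) had the highest count share of the 10 genes in undifferentiated cells, at 423, 460 and 447 CPM with NC, naloxone and DAMGO. It fell to 146, 194 and 165 CPM at day 2 and to 19.4, 19.9 and 20.3 at day 4, and the day 8 values of 16.1, 19.5 and 14.7 overlapped those of day 4. The log2 change was -1.41 ± 0.09, -4.48 ± 0.1 and -4.73 ± 0.1 at days 2, 4 and 8, the last a 26.5-fold fall (edgeR adjusted p = 2.4e-07, 3.56e-10 and 1.25e-10). By day 4 Etv5 had thus reached 94.9% of its day 8 log2 change. The difference between days 4 and 8 did not pass (-0.24 ± 0.11, edgeR adjusted p = 0.0669).

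Etv4 (ENSMUSG00000017724) was at 92.8, 88.5 and 90.8 CPM undifferentiated and at 39.3, 62.5 and 53.4 at day 2. It was at 8.61, 4.97 and 6.01 CPM at day 4 and at 2.81, 4.37 and 3.29 at day 8, where the libraries held 15, 37 and 19 counts. Every undifferentiated library was above every day 2 library, and every day 2 library above the later ones. The day 8 fall was 25.5-fold, or -4.67 ± 0.24 on the log2 scale (edgeR adjusted p = 2.82e-08).

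Etv1 (ENSMUSG00000004151), a close relative of both, did not follow them. It measured 199, 209 and 197 CPM in undifferentiated cells, 280 with NC, 165 with naloxone and 189 with DAMGO at day 2, and 295, 313 and 325 at day 4. Only at day 8 was it low, at 60.9, 46.2 and 59.1 CPM. The day 2 libraries lay on both sides of the undifferentiated ones, while all day 4 libraries were above them and all day 8 libraries below. The day 2 change was 0.03 ± 0.15 and did not pass (edgeR adjusted p = 0.852), the day 4 rise was 0.62 ± 0.15, or 1.54-fold (edgeR adjusted p = 0.00487), and the day 8 fall was -1.88 ± 0.16, or 3.68-fold (edgeR adjusted p = 1.74e-06). From day 4 to day 8 the change was -2.5 ± 0.16 on the log2 scale (edgeR adjusted p = 8.49e-07), and with the GC and length trend removed it was -0.67 ± 0.29 and did not pass (edgeR adjusted p = 0.0813).

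**Figure D1:**
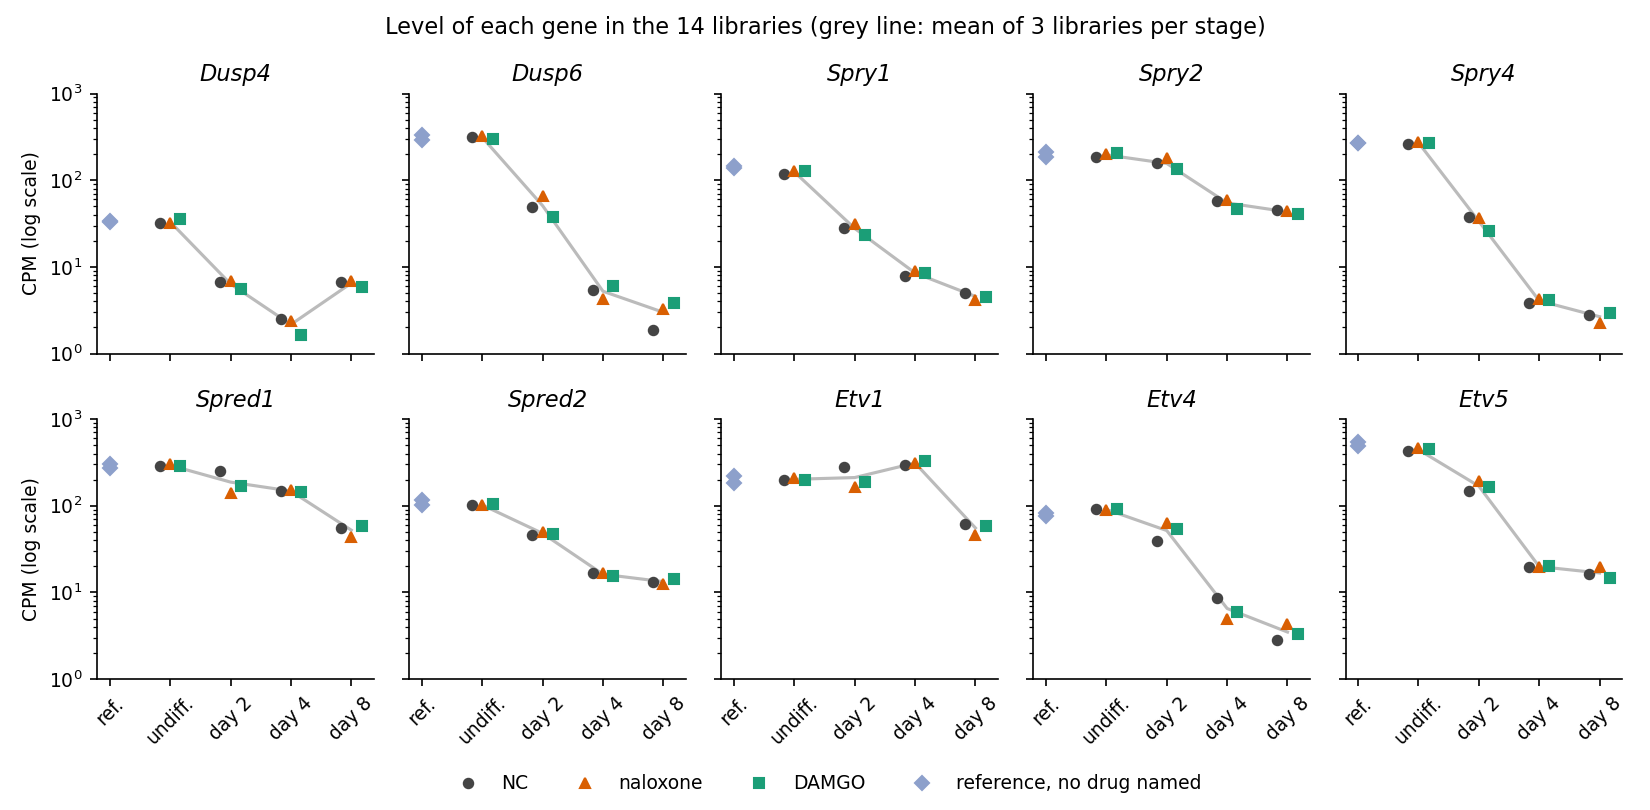
Level of each gene in CPM on a log axis, by stage, with 1 point per library: circles NC, triangles naloxone, squares DAMGO, diamonds the 2 references, and a grey line through the mean of each stage's 3 libraries. Dusp6 and Spry4 drop from about 300 CPM (mean 312 and 271) to 3.0 and 2.67, Dusp4 turns up again after day 4, and Etv1 is highest at day 4.

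Etv1 and Spred1 have the lowest GC content of the 10 genes in their longest transcript, 39.8% and 41.2% against a median of 49.5% over tested genes, and the longest transcripts, 6576 and 6016 bases. They were also the 2 genes whose day 2 NC library stood furthest above the drug libraries. When each library's trend on GC content and length was taken out, the day 8 change of Etv1 was -0.06 ± 0.29 and no longer passed (edgeR adjusted p = 0.87), and that of Spred1 was -0.92 ± 0.29 (edgeR adjusted p = 0.0074). At day 2 Etv1 was then higher than in undifferentiated cells, by 1.37 ± 0.29 (edgeR adjusted p = 0.000187), and Spred1 turned to 0.62 ± 0.29 without passing (edgeR adjusted p = 0.0874). The day 4 value of Etv1 was 0.61 ± 0.29 and did not pass (edgeR adjusted p = 0.103). This correction moved the median log2 change of all genes to 0.22 at day 2 and 0.17 at day 8, from -0.01 and 0.05. The day 8 falls of the other 8 genes passed with and without the correction, and with it ran from -1.91 for Spry2 to -6.99 for Dusp6. Whether the trend is technical or biological cannot be told apart here.

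**Figure D2:**
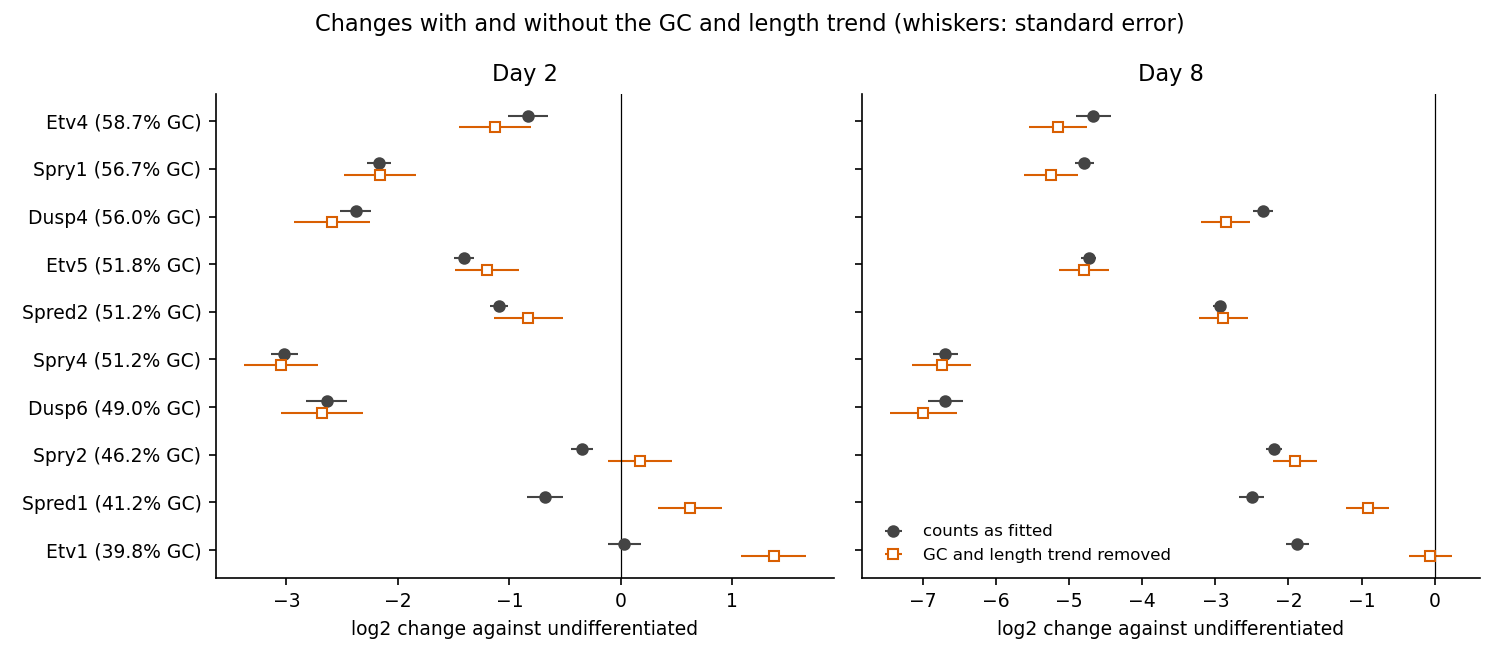
Log2 change against undifferentiated cells at day 2 (left) and day 8 (right) for the 10 genes, ordered by GC content of the longest transcript, with standard errors; filled circles are the counts as fitted, open squares the fit with each library's GC and length trend removed. Etv1 and Spred1, at the bottom, move to the right in both panels, Etv1 from -1.88 to -0.06 at day 8.

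Set side by side, 9 of the 10 genes were lower at day 2 than in undifferentiated cells and none was higher. Of all 13413 genes tested, 35.6% were lower. With 1 library left out, 8 to 9 of the 10 were lower at day 2. With the GC and length trend removed, 7 were lower and 1, Etv1, was higher, beside 1904 lower and 3236 higher of all 13413 genes. At day 4, with the counts as fitted, 9 were lower and 1, Etv1, was higher, beside 30.7% and 31.1% of all genes. At day 8 all 10 were lower, beside 38.3% of all genes, and the median log2 change of the 10 was -3.81 against 0.05 over all genes tested. Under a test for changes beyond 2-fold all 10 still passed at day 8, beside 18.7% of all genes, and 5 did at day 2, beside 12.2%: Dusp4, Dusp6, Spry1, Spry4 and Etv5. From day 2 to day 4, 8 genes fell and Etv1 rose by 0.59 ± 0.15 (edgeR adjusted p = 0.00954), beside 24.5% and 26.8% of all genes; this rise no longer passed without the day 2 DAMGO library (0.5, edgeR adjusted p = 0.0533), and with the GC and length trend removed the value was -0.76 and did not pass (edgeR adjusted p = 0.0677). From day 4 to day 8, 8 genes fell and Dusp4 rose, beside 31.1% and 36.7%. That count of 8 depended on single libraries: it was 4 without the day 4 NC library, 5 without the day 8 NC library and 5 without the day 8 naloxone library. With the GC and length trend removed it was 2, Spry1 (-1.27 ± 0.36) and Etv4 (-1.13 ± 0.39), and Dusp4 was still higher, while Etv1 and Spred1 did not pass (-0.67 and -0.1, edgeR adjusted p = 0.0813 and 0.836).

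**Figure D3:**
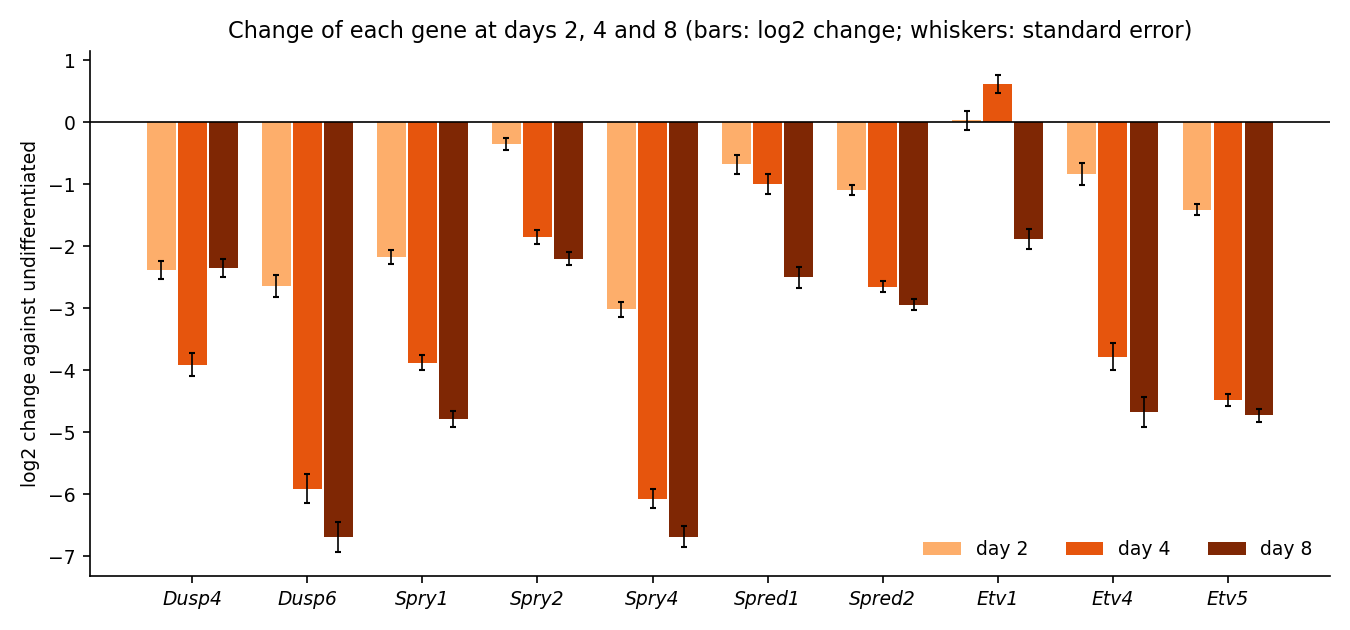
Log2 change of each gene against undifferentiated cells at day 2, day 4 and day 8 (bars from light to dark), with standard errors derived from the F statistics of the fit over 12 libraries. All day 8 bars lie below 0, from -1.88 for Etv1 to -6.69 for Dusp6 and Spry4; the day 4 bar of Etv1 lies above 0.

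The genes also differed in when they fell. Measured on the log2 scale, day 4 already held 80.8% to 94.9% of the day 8 change for Dusp6, Spry1, Spry2, Spry4, Spred2, Etv4 and Etv5, but 39.7% for Spred1, and for Etv1 the day 4 change was of the opposite sign. With the GC and length trend removed the Spred1 share was 88.9%, and Etv1 had almost no day 8 change to compare with (-0.06). At day 2 the share was highest among these 7 for Spry1 and Spry4, at 45.4% and 45.2%, and lowest for Spry2 and Etv4, at 15.9% and 17.7%. Dusp4 had its whole day 8 change at day 2 (101%) and more than that at day 4 (166%).

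Levels of different genes were compared in TPM, which take transcript length into account as CPM do not. In undifferentiated cells the order was Dusp6 at 228 ± 10.6 TPM (SD, n = 3), Etv5 at 225 ± 10.3, Spry2 at 197 ± 11.4, Spry4 at 117 ± 3.1, Etv1 at 106 ± 7.61, Spry1 at 103 ± 3.87, Etv4 at 102 ± 2.25, Spred1 at 98.1 ± 3.05, Spred2 at 51.1 ± 0.0351 and Dusp4 at 24.7 ± 1.73. Dusp6 and Etv5 overlapped each other, and each neighbouring pair from Spry4 down to Spred1 overlapped as well. The order then changed. At day 4 Etv1 led with 204 ± 12.1 TPM, above every other gene, ahead of Spry2 at 62.3 ± 7.27 and Spred1 at 55.3 ± 1.47, which overlapped. At day 8 Spry2 led with 37.2 ± 2.07 TPM, followed by Etv1 at 26.8 ± 1.53 and Spred1 at 14.8 ± 2.03, with no overlap between these 3, and Dusp6 and Spry4, at 1.89 ± 0.645 and 0.997 ± 0.131, came last. The 10 genes together made up 1250 ± 36.2 TPM undifferentiated, 566 ± 65.8 at day 2, 368 ± 6.05 at day 4 and 106 ± 1.82 at day 8.

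The list counts at day 8 are to be read beside 41.5% of all 13413 genes higher and 38.3% lower, or 30.7% and 21.1% with the GC and length trend removed. Of 32 listed genes of the FGF and EGF families, 10 were tested. Of these 10, 5 were higher and 2 lower, a share of higher genes near that of all genes. With the trend removed, 5 were higher and 1 lower, beside 30.7% and 21.1% of all genes. This list was drawn by family name and includes Fgf11, Fgf12 and Fgf14, and receptor binding was not examined. Nrg2 (a neuregulin) was at 1.54 ± 0.29, Tgfa (an EGF receptor ligand) at 1.4 ± 0.11, Fgf1 at 1.33 ± 0.08 and Hbegf at 0.98 ± 0.12 on the log2 scale. With the trend removed Hbegf was at 0.44 and did not pass (edgeR adjusted p = 0.255). Of 7 receptor genes 6 were higher and Egfr, the EGF receptor, was lower. Egfr stood at 615 ± 13.6 CPM (SD, n = 3) undifferentiated and 563 ± 172 at day 2. It was down to 323 ± 20.8 CPM by day 4 and to 130 ± 5.92 by day 8, a log2 change of -2.25 ± 0.14 (edgeR adjusted p = 1.74e-07) that was -0.94 with the trend removed (edgeR adjusted p = 0.0061). Fgfr2 instead rose from 6.47 ± 0.557 to 119 ± 9.51 CPM (4.19 ± 0.09, edgeR adjusted p = 1.38e-10) and Erbb2 from 6.16 ± 1.03 to 52.4 ± 3.02 (3.09 ± 0.13, edgeR adjusted p = 5.65e-09). Fgfr1 and Fgfr3 were both higher at day 8, by 0.49 ± 0.08 and 0.69 ± 0.07 (edgeR adjusted p = 0.000168 and 6.62e-06), although neither passed with the GC and length trend removed (0.05 and 0.35). Erbb4, a neuregulin receptor, was at 1.97 ± 0.41 at day 8 (3.83 with the trend removed) after 4.87 ± 0.39 at day 4. The median of the receptor list was 1.62, beside 0.05 over all genes.

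Inside the cell, 9 of 14 adaptor and exchange factor genes were higher and 3 were lower, and of 20 genes for Ras, Raf, MEK, ERK and their scaffolds 12 were higher and 5 lower. The list medians were 0.48 and 0.42. Among the named genes, Shc3 (an Shc adaptor) was at -3.46 ± 0.14 (-4.07 with the trend removed) and Rasgrp2 (a Ras family exchange factor) at 2.72 ± 0.18, and the Ras relative Mras was at 2.51 ± 0.08. Rps6ka3, the ERK-activated kinase Rsk2, was at -3.15 ± 0.33, or -1.35 with the trend removed. Braf was at -1.85 ± 0.31 and Sos1 at -1.23 ± 0.24, both low in GC content (42.6% and 41.0%), and with the GC and length trend removed they were at -0.5 and 0.64 and did not pass (edgeR adjusted p = 0.211 and 0.0771). With the trend removed the counts were 6 higher and 1 lower for adaptors and 7 higher and 1 lower for Ras to ERK.

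Of 16 further Ras GTPase activators and brakes, 6 were higher and 8 lower (1 and 4 with the trend removed). Spred3, the third Spred gene, was at -2.43 ± 0.12 (edgeR adjusted p = 3.28e-08), and Rasa1, a Ras GTPase activator, at -3.24 ± 0.35 (edgeR adjusted p = 1.08e-05), or -1.86 with the trend removed. Spry3 is not analysed here. All 7 other MAP kinase phosphatase genes tested were lower (6 with the trend removed) with a median of -1.73. Dusp10 was at -2.58 ± 0.18, Dusp1 at -2.0 ± 0.15, Dusp16 at -1.73 ± 0.11 and Dusp7 at -1.64 ± 0.14 (-2.26 with the trend removed), beside -6.69 for Dusp6.

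Of 20 other genes that growth factors induce, 11 were lower and 7 higher at day 8 (12 and 5 with the trend removed). Egr1, an immediate early transcription factor, stood at 388 ± 26.1 CPM in undifferentiated cells and fell to 25.8 ± 6.75 by day 2. It then gave 8.1 ± 0.166 CPM at day 4 with 5.97 ± 1.8 at day 8, where its change of -6.02 ± 0.16 was close in size to those of Dusp6 and Spry4 (edgeR adjusted p = 3.8e-10). Ccnd1, the cyclin D1 gene, went from 2400 ± 29.4 to 111 ± 7.42 CPM by day 2 and 37.4 ± 2.0 by day 8 (-6.01 ± 0.09, edgeR adjusted p = 4.1e-11). Hmga2, a chromatin protein gene, went from 27.1 ± 0.883 CPM to between 0 and 0.354 CPM in the day 8 libraries, of which at least 1 had no count. Myc was at -1.52 ± 0.07 (edgeR adjusted p = 2.3e-08), or -2.13 with the trend removed, and Dok5 was higher at 2.85 ± 0.16. Fos, Junb and Ier3 are among the 7 that were higher, at 1.3, 1.87 and 0.96, and are named here after their values were seen. They had been lower before, at -1.6, -1.91 and -1.87 at day 2 and -0.57, -2.17 and -3.09 at day 4. At day 2, 16 of the 20 genes were lower and 2 higher, beside 35.6% of all genes lower. By day 4, 18 were lower and 2 higher, beside 30.7% of all genes lower. With the trend removed 16 and 14 were lower at these days.

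Of 15 further ETS factor and Capicua partner genes, 8 were lower and 5 higher (6 and 3 with the trend removed), with a median of -0.56. Ets1 was at -1.94 ± 0.11, Elk3 at -1.33 ± 0.1 and Gabpa at -2.46 ± 0.31 (-1.0 with the trend removed), while Atxn1, whose product binds Capicua, was at 2.12 ± 0.22 (2.83 with the trend removed). Cic, the Capicua gene, was higher by 0.27, and Erf, an ETS repressor that ERK exports from the nucleus, was at -1.26; these 2 genes were named after their values were seen.

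**Figure D4:**
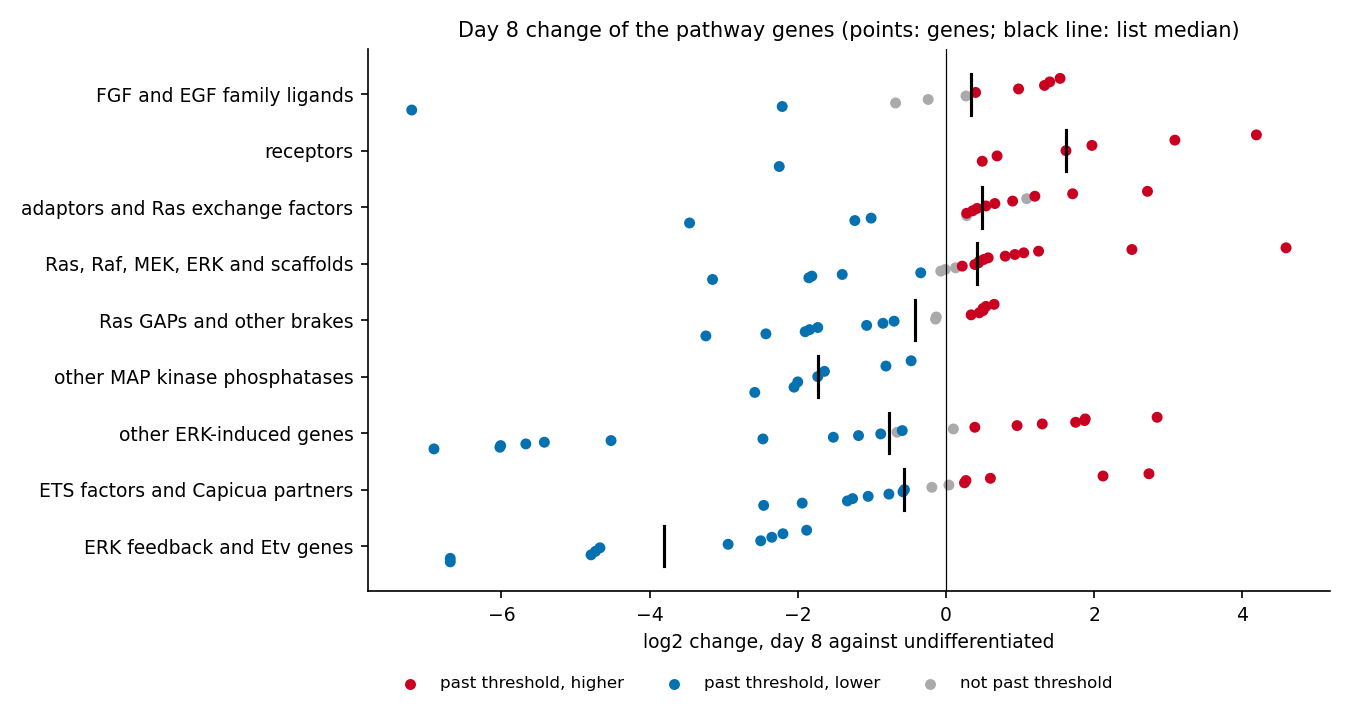
Log2 change at day 8 against undifferentiated cells for every tested gene of the pathway lists, 1 point per gene, red where higher and blue where lower past the threshold, grey otherwise, with a black line at each list's median. The ERK feedback and Etv genes (bottom) lie entirely to the left of 0 with a median of -3.81, the other MAP kinase phosphatases have a median of -1.73 and the receptors one of 1.62.

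Neither drug changed any of the 10 genes past the threshold. In the comparison of naloxone with NC over the 4 stages none of the 10 was called, beside 0% of 13413 genes, although 1344 genes had an unadjusted p below 0.05. DESeq2 called none as well, with 1174 genes below an unadjusted 0.05. The value furthest from its error was that of Etv5, at 0.22 ± 0.08 on the log2 scale (edgeR unadjusted p = 0.0194, adjusted p = 0.473), which was higher with naloxone than with NC in 4 of 4 stages. In CPM these pairs were 460 against 423 undifferentiated, 194 against 146 at day 2, 19.9 against 19.4 at day 4 and 19.5 against 16.1 at day 8. Without the 3 day 2 libraries the Etv5 value was 0.14 ± 0.09 (edgeR unadjusted p = 0.158, adjusted p = 0.96). Spred1 and Etv1 had the lowest values, -0.27 ± 0.14 and -0.25 ± 0.13 (edgeR adjusted p = 0.48 for both), and each was -0.05 ± 0.09 without the day 2 libraries. At day 2 and at day 8 the naloxone library differed from its NC library along GC content (r = 0.559 and 0.444). The day 8 libraries remained in the fit without day 2. At day 2 the naloxone to NC log2 ratio ran from -0.85 for Spred1 to 0.67 for Etv4. These genes are low and high in GC content (41.2% and 58.7%). Etv1, at 39.8% GC, was at -0.77. The genes between did not all follow this order. Dusp4 and Spry1, at 56.0% and 56.7%, were at 0.04 and 0.15, and Dusp6, at 49.0%, was at 0.41. At day 8 the ratio ran from -0.4 for Etv1 to 0.82 for Dusp6, the latter from 28 and 10 counts. In undifferentiated cells it ran from -0.07 to 0.13.

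DAMGO against NC gave no call among the 10 (0% of all genes, with 325 genes below an unadjusted 0.05 in edgeR and 212 in DESeq2, which also called none), and the values lay between -0.16 ± 0.14 for Spred1 and 0.07 ± 0.08 for Etv5. Naloxone against DAMGO gave none either (0% of all genes, 245 below an unadjusted 0.05 in edgeR and 47 in DESeq2, which called none). Spry2 had the smallest unadjusted p there, 0.0483 for a difference of 0.2 ± 0.09 (edgeR adjusted p = 1.0), and was higher with naloxone than with NC in 3 of 4 stages and with DAMGO than with NC in 1 of 4. The drug effects in differentiating cells did not differ from those in undifferentiated cells past the threshold for any of the 10, beside 0% of 13785 genes for naloxone and 0% for DAMGO in edgeR (240 and 221 genes below an unadjusted 0.05). DESeq2 called 2 genes for naloxone, neither among the 10, and none for DAMGO. The smallest unadjusted p among the 10 was again that of Spry2, 0.0512 for DAMGO (-0.4 ± 0.17, edgeR adjusted p = 1.0). These comparisons rest on 1 library per condition, and a p that misses the threshold does not show that the levels were equal.

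The reference cultures had levels of the 10 genes near those of the undifferentiated drug experiment. Between passage 13 and passage 8 no member was called, beside 0.0217% of 13855 genes, and the largest difference was 0.25 ± 0.26 for Etv1, at 218 CPM in passage 13 and 183 in passage 8. Between the references and the 3 undifferentiated libraries none was called either, beside 0.686% of genes. Etv5 was the furthest apart there, at 495 and 550 CPM in the references against 423 to 460, a difference of 0.23 ± 0.09 that did not pass (edgeR unadjusted p = 0.0304, adjusted p = 0.354). Dusp6 measured 332 and 294 CPM in the references and Spry4 266 and 271, within or beside the undifferentiated ranges of 296 to 324 and 263 to 278.

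For 3 of the genes, the closest courses over the 14 libraries were looked up among other genes with a mean of at least 5 CPM, by Pearson correlation of log2 CPM. The libraries fall into stages, so these values describe mainly the differences between stages. Closest to Dusp6 were Knstrn, a spindle protein gene, at 0.9955, Inka2 at 0.9944 and Bmp7 at 0.9942. Closest to Spry2 were Igfbp2, a binding protein for insulin-like growth factors, at 0.9877, Syk at 0.9862 and the matrix gene Fbln2 at 0.9849. Closest to Etv5 were the membrane metalloproteinase gene Mmp15 at 0.9984, the Src family kinase gene Lyn at 0.9953 and the cadherin gene Cdh22 at 0.9951.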

How the data were processed

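Per the labels' protocols, total RNA was made into libraries with a TruSeq kit. Bowtie and RSEM with mm10 are named in the submitters' processing notes; no version or strand setting is stated there. RSEM expected counts and TPM were deposited for each gene, per the file headers. RSEM divides reads shared by related genes. The expected counts, not whole for 10.4 to 13.1% of genes, were rounded here, and CPM were computed from them with TMM scaling over 14 libraries.

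Tests used edgeR 4.0.16 (quasi-likelihood, TMM, filterByExpr, Benjamini-Hochberg over all genes tested, threshold 0.05, two-sided) on rounded counts of the 12 libraries of the drug experiment, with stage and treatment as additive terms and 6 residual degrees of freedom. The SE of an edgeR log2 change is the size of the change divided by the square root of its quasi-likelihood F statistic. The edgeR p-value does not always match this SE. Dusp4 in naloxone against DAMGO, for example, was at 0.09 ± 0.14 with an edgeR unadjusted p of 0.838. Drug by differentiation was tested with interaction terms (4 degrees of freedom), and the references in a fit of 14 libraries with a term for each. Alternatives used DESeq2 1.42.0, limma 3.58.1 on log2(TPM + 1) and log2(TPM + 0.1), voom, a 2-fold minimum change, no filter, a GC and length trend per library removed with mgcv 1.9.3 (GC content and length of the longest GENCODE M21 transcript; 29202 of 29713 identifiers matched), and left-out libraries. Scripts were tested on simulated data. With some genes changed by known folds, a few more unchanged genes than the nominal rate were called in stage or drug comparisons. With no gene changed, none was called for naloxone against NC.

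The members and lists were chosen with earlier results of these data known. The 10 members were always reported; from each list up to 4 genes past the threshold at day 8, with the largest change and a mean of 5 CPM or more, were named, as were Egr1, Myc, Ccnd1, Fgfr1, Fgfr2, Fgfr3 and Egfr; 1 gene that the rule names is not reported here.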

Additional observations from a re-analysis of the deposited data

How the results depend on the processing

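Of 1860 alternative values for the 10 genes, 1803 kept their side of the threshold, 47 lost it, 7 gained it and 3 that had passed reversed in sign. Changes of sign among values that did not pass were not counted as reversals. For Etv1 at day 2, for example, the change ran from -0.15 to 0.17 with 1 library left out. The reversals came with the GC and length trend removed: Spry2 (0.17) and Spred1 (0.62) at day 2 and Etv1 (-0.76) from day 2 to day 4; the cause was not tested. That setting also made 1 gene higher at day 2, none higher at day 4 or from day 2 to day 4 and 2 lower from day 4 to day 8, where the 2-fold minimum gave 2 as well. The 2-fold minimum gave 5 lower at day 2 and 0 higher at day 4 and from day 2 to day 4. With 1 library left out, the number lower from day 4 to day 8 ranged from 4 to 8 and the number higher from day 2 to day 4 from 0 to 1.

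Over all genes, the trend removal and the 2-fold minimum left 5140 and 2863 calls of 9260 at day 2, 4552 and 2589 of 8294 at day 4, 6940 and 5063 of 10707 at day 8, 1990 and 648 of 6875 from day 2 to day 4, and 3735 and 2387 of 9107 from day 4 to day 8. Higher and lower calls were 4485 and 4775 at day 2 against 3236 and 1904 with the trend removed, 5565 and 5142 at day 8 against 4114 and 2826, 3589 and 3286 from day 2 to day 4 against 548 and 1442 (4804 and 1573 on TPM), and 4929 and 4178 from day 4 to day 8 against 2755 and 980 (2571 and 6153 on TPM); at day 4 on TPM they were 4993 and 3017 against 4174 and 4120. DAMGO against NC called 1 gene with the trend removed and 0 to 2 with 1 library left out, naloxone against DAMGO 0 to 2 with 1 left out, naloxone by differentiation 2 in DESeq2, and passage 13 against passage 8 called 7 without a filter. None of these drug or passage calls was among the 10 genes. The stage term already compares the drugs within stages; the labels give no replicate numbers, so no further block was fitted. Low counts, 7 to 37 per library for Dusp4 at day 4 and for Dusp6, Spry1, Spry4 and Etv4 at day 8, limit the late comparisons.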
